A study of Rattus norvegicus with 4 samples.

Results

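The 10 genes described here make, conjugate and move bile acids in the liver. They were picked by symbol, with no cutoff on a measured value, from the 16999 named genes over 200 bp in length. Earlier results of these data were known when the genes were picked. They are *Cyp7a1*, *Cyp8b1*, *Cyp27a1* and *Cyp7b1* (synthesis), *Slc27a5* and *Baat* (conjugation), *Nr1h4* and *Nr0b2* (nuclear receptors that regulate the pathway) and *Slc10a1* and *Abcb11* (transport). Each symbol had 1 entry per library and all 10 genes were found in all 4 libraries. RNA sequencing was done on liver from wild type rats that inhaled sevoflurane (4.5%) or desflurane (6%), both halogenated anesthetics. The control of each agent also inhaled it, until consciousness was lost, and was decapitated at that moment (0 h), whereas the other rat stayed under the agent for 6 h. Each of these 4 groups (sevoflurane 0 h and 6 h, desflurane 0 h and 6 h) is 1 library, so a difference between 2 of them has no replicate check and carries no p-value. Tissue of the 6 h rats was collected 6 h later in the day than that of the controls, so duration of anesthesia and hour of collection cannot be told apart, and strain, sex and age are not in the labels.

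Hepatocytes turn cholesterol into bile acids by a classic route that starts with the hydroxylase CYP7A1, the rate-limiting enzyme, and by an alternative route that starts with CYP27A1. The products are joined to taurine or glycine and pumped into the bile canaliculus, and most return from the gut and are taken up again at the sinusoidal face. Bile acids hold their own synthesis down through the receptor FXR (*Nr1h4*), which induces the repressor SHP (*Nr0b2*), and in rodents *Cyp7a1* is also known for a strong daily rhythm.

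The libraries held 3.50 to 5.57 Gb of aligned bases by the ratio of coverage to FPKM, with the sevoflurane control the shallowest. Levels are given as TPM, transcript abundance scaled for gene length and library size, so that levels of different genes can be set side by side. A TPM of 1 stood for a mean coverage of 2.36 to 3.64 reads per base. The tissue label was checked with marker genes: all 8 hepatocyte markers exceeded a TPM of 2 in each library, with summed levels from 94891 to 106449 TPM, whereas the 7 bile duct markers found of 8 summed to between 8.11 and 12.6 TPM. *Dbp*, an output gene of the circadian clock, stood at 0.40 TPM in the sevoflurane control and 87.9 TPM at 6 h, and at 1.92 and 44.8 TPM with desflurane. The part of the hour of collection in the values below was not tested.

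Promoter sequence was read for 6 of the 10 genes from RefSeq (rat assembly GRCr8), as the 250 bases before the gene start, 5′ to 3′ along the gene. *Baat* and *Cyp8b1* are shown first because each holds, at nearly the same distance from the start, letters of the kind bound by HNF4, a hepatocyte transcription factor. In *Baat*, which was lower at 6 h with both agents, CAAAGTCCA lies at -90 to -82 from the start, and in *Cyp8b1*, which differed between the agents at 6 h, CAAGGTCCA lies at -89 to -81. Capitals mark these letters, at chr5:68656138-68656387 (minus strand) for *Baat* and chr8:130457593-130457842 (minus strand) for *Cyp8b1*.
Baat: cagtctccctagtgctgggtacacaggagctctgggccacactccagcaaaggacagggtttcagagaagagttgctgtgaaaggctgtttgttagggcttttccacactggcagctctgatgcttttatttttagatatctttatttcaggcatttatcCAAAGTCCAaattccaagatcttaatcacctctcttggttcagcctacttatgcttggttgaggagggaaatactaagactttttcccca
Cyp8b1: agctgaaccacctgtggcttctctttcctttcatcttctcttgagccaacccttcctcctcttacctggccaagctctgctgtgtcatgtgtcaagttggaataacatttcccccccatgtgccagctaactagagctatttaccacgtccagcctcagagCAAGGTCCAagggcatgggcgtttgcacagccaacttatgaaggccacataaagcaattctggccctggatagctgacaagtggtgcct
One or the other of these 9-letter forms, on either strand, occurred in 0.595% of the 33469 promoter windows of the same length. The forms were picked after the values and the sequences had been seen, and a match is a description, not a binding site.

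*Cyp27a1* and *Nr0b2* are shown because the first was higher at 6 h with both agents and the second differed between the controls. The *Cyp27a1* window (chr9:83713282-83713531, plus strand) held the nuclear receptor half-site AGGTCA on the forward strand at -115 to -110 and on the reverse strand, as TGACCT, at -236 to -231. The *Nr0b2* window (chr5:151062910-151063159, plus strand) held an E-box, CACGTG, at -193 to -188 and a TATA box, TATAAA, at -29 to -24.
Cyp27a1: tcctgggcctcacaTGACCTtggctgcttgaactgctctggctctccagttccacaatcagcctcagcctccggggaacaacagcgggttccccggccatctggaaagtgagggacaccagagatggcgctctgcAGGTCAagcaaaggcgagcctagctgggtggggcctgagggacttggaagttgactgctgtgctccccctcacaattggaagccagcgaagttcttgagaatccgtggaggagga
Nr0b2: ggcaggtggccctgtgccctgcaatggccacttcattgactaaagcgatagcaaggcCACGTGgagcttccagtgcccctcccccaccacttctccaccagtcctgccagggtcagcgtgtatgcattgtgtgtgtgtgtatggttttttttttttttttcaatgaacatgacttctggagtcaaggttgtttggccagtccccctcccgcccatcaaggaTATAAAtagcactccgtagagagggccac
On either strand, AGGTCA was present in 14.1%, CACGTG in 5.59% and TATAAA in 12.9% of the 33469 windows. The *Slc10a1* window held AGGTCA at -197 to -192 and at -99 to -94, and none of the searched letters was found in the *Slc27a5* window. The D-box TTATGTAA, found in 0.828% of all windows, and the inverted repeat bound by FXR, AGGTCANTGACCT, found in 0.0269% of them, were in none of the 6 windows. The inverted repeat contains AGGTCA on both strands, and the other motifs overlapped none of each other in the windows printed.

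The conjugation genes *Baat* and *Slc27a5* had the highest mean levels of the 10 genes, and the synthesis gene *Cyp7b1* had the lowest. By mean TPM over the 4 libraries, *Baat* was highest (799), followed by *Slc27a5* (376), *Slc10a1* (198), *Abcb11* (179.8), *Cyp27a1* (179), *Cyp7a1* (79.4), *Cyp8b1* (50.7), *Nr1h4* (31.3), *Nr0b2* (27.5) and *Cyp7b1* (2.52). The ranges over the libraries were apart for 3 neighbouring pairs, *Baat* over *Slc27a5*, *Slc27a5* over *Slc10a1*, and *Nr0b2* over *Cyp7b1*. The other 6 neighbouring pairs overlapped, and *Cyp7a1* stood above *Cyp8b1* in 1 of 4 libraries only.

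**Figure D1:**
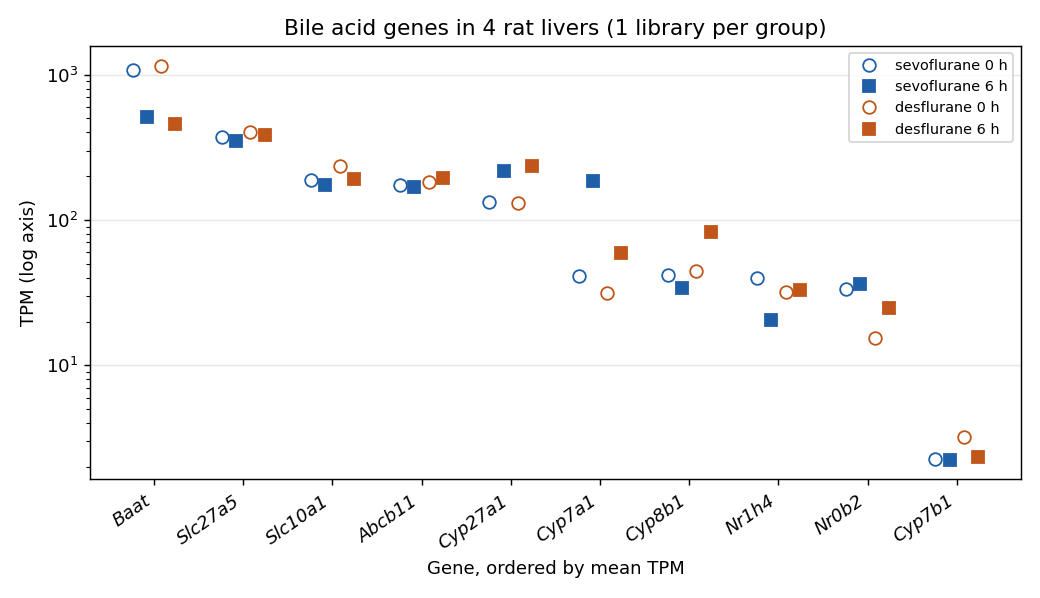
TPM on a log axis of each of the 10 bile acid genes, with 1 point per library and no error bars because each group held 1 library. *Cyp7a1* stands apart in the sevoflurane 6 h library (186 TPM against 31.4 to 59.1 in the other three), *Baat* lies lower in both 6 h libraries, and *Slc27a5*, *Slc10a1* and *Abcb11* stay within narrow ranges.

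*Cyp7a1*, whose product starts the classic route, was higher at 6 h with both agents, and far more so with sevoflurane. The gene (rn6 chr5:19358734-19368431, minus strand) stood at 41.2 TPM in the sevoflurane control, 186 TPM at sevoflurane 6 h, 31.4 TPM in the desflurane control and 59.1 TPM at desflurane 6 h. The sevoflurane 6 h library was the high one. A gene was called higher or lower where its TPM exceeded 2 in the higher library and the ratio exceeded 2. By this rule *Cyp7a1* was called with sevoflurane, at a ratio of 4.51, and not with desflurane, at 1.88, while the controls differed 1.31-fold. Scaling the libraries by the median of gene ratios took the desflurane ratio to 2.03, just over the limit. Set against the opposite agent's control, the ratios were 5.92 for sevoflurane 6 h and 1.43 for desflurane 6 h. Among all named genes, *Cyp7a1* moved from rank 1362 to rank 422 by TPM with sevoflurane and from rank 1769 to rank 1059 with desflurane.

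*Cyp8b1*, whose product adds the hydroxyl group that makes cholic acid, stood apart from *Cyp7a1* in the sevoflurane pair and had nearly the same ratio in the desflurane pair. Its levels (rn6 chr8:130548418-130550388, minus strand) were 41.6 TPM at sevoflurane 0 h, 34.2 TPM at sevoflurane 6 h, 44.3 TPM at desflurane 0 h and 82.9 TPM at desflurane 6 h. The desflurane 6 h library was the high one, and the 3 others lay close together. Neither change was called: the 6 h library was 1.22-fold lower with sevoflurane and 1.87-fold higher with desflurane. With scaling by the median of ratios the desflurane ratio was 2.02 and would be called, as for *Cyp7a1*. The ratio of *Cyp7a1* to *Cyp8b1* level within a library was 0.991 at sevoflurane 0 h, 5.43 at sevoflurane 6 h, 0.710 at desflurane 0 h and 0.713 at desflurane 6 h. The ratio was thus nearly equal in both desflurane libraries and stood apart in the sevoflurane 6 h library.

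*Cyp27a1*, the sterol hydroxylase of the alternative route, was higher at 6 h by similar amounts with both agents. Its levels (rn6 chr9:81968523-81998213, plus strand) were 134 TPM and 217 TPM at 0 h and 6 h with sevoflurane, and 130.3 TPM and 234.5 TPM with desflurane. Both 6 h libraries lay above both controls, and the controls differed by a ratio of 1.03. The ratios of 1.62 and 1.80 were below the limit of 2. *Cyp7b1*, the oxysterol hydroxylase that follows on this route, was near the lowest TPM that the rule of size accepts, at 2.27, 2.24, 3.23 and 2.35 TPM in sevoflurane 0 h and 6 h and desflurane 0 h and 6 h, respectively. With a mean coverage between 5.35 and 11.1 reads per base, its values overlapped between 0 h and 6 h. Of these 2 genes, *Cyp27a1* was thus higher in both 6 h libraries, while *Cyp7b1* showed no separation at this depth.

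*Baat*, which joins bile acids to taurine or glycine and was the most abundant of the 10 transcripts on average, was lower at 6 h with both agents. The gene (rn6 chr5:64768399-64777368, minus strand) stood at 1077 TPM in the sevoflurane control and 508 TPM at 6 h, and at 1153 TPM in the desflurane control and 459 TPM at 6 h. The controls were 1.07-fold apart and both 6 h libraries lay far below them. The 6 h level was 2.12-fold lower with sevoflurane and 2.51-fold lower with desflurane, and both were called. *Baat* went from rank 61 among all named genes in both controls to rank 136 at sevoflurane 6 h and rank 163 at desflurane 6 h. *Slc27a5*, the ligase that activates bile acids for BAAT, showed no such difference, at 371, 350.4, 400.1 and 381 TPM in sevoflurane 0 h and 6 h and desflurane 0 h and 6 h (rn6 chr1:65576599-65587192, plus strand). The ratio of *Baat* to *Slc27a5* level was 2.90 and 2.88 in the controls, 1.45 at sevoflurane 6 h and 1.20 at desflurane 6 h. The 2 steps of conjugation therefore differed in how their transcripts stood at 6 h, with the acyltransferase lower and the ligase within 1.06-fold of its control for each agent.

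The receptors that hold synthesis in check had no change that passed over both agents. *Nr1h4*, which encodes FXR (rn6 chr7:30003429-30162056, minus strand), stood at 39.6 TPM at sevoflurane 0 h, 20.6 TPM at sevoflurane 6 h, 31.8 TPM at desflurane 0 h and 33.1 TPM at desflurane 6 h. The sevoflurane 6 h library was the low one, 1.92-fold below its control, just short of a call on TPM, and the ratio was 2.04 on FPKM. A locus assembled on the opposite strand inside *Nr1h4* was at 9.26, 11.5, 10.5 and 9.85 TPM in sevoflurane 0 h and 6 h and desflurane 0 h and 6 h, respectively. The library kit keeps strand, but whether strand was used in the authors' counting is not given in the sources used here, so reads of the *Nr1h4* locus on the 2 strands may not be fully separated. *Nr0b2*, which encodes SHP (rn6 chr5:151776004-151779319, plus strand), stood at 33.5 TPM at sevoflurane 0 h, 36.2 TPM at sevoflurane 6 h, 15.3 TPM at desflurane 0 h and 24.9 TPM at desflurane 6 h. Its low library was the desflurane control, 2.19-fold below the sevoflurane control and called lower, so the gap between the control animals exceeded the change with either agent (ratios of 1.08 and 1.62).

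The transporters stayed within narrow ranges. *Slc10a1*, which encodes NTCP, the sodium-coupled uptake carrier of the sinusoidal membrane (rn6 chr6:104617730-104631355, minus strand), stood at 189.6, 175, 236 and 190.3 TPM in sevoflurane 0 h and 6 h and desflurane 0 h and 6 h, respectively. The desflurane control was the high library, 1.24-fold above both the sevoflurane control and desflurane 6 h. *Abcb11*, which encodes BSEP, the export pump of the canalicular membrane (rn6 chr3:55480024-55587946, minus strand), stood at 174, 168, 183 and 194.5 TPM in the same order. No library stood out for *Abcb11*, with ratios of 0.966 with sevoflurane and 1.06 with desflurane. The ratio of *Abcb11* to *Slc10a1* level lay between 0.777 (desflurane 0 h) and 1.02 (desflurane 6 h).

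**Figure D2:**
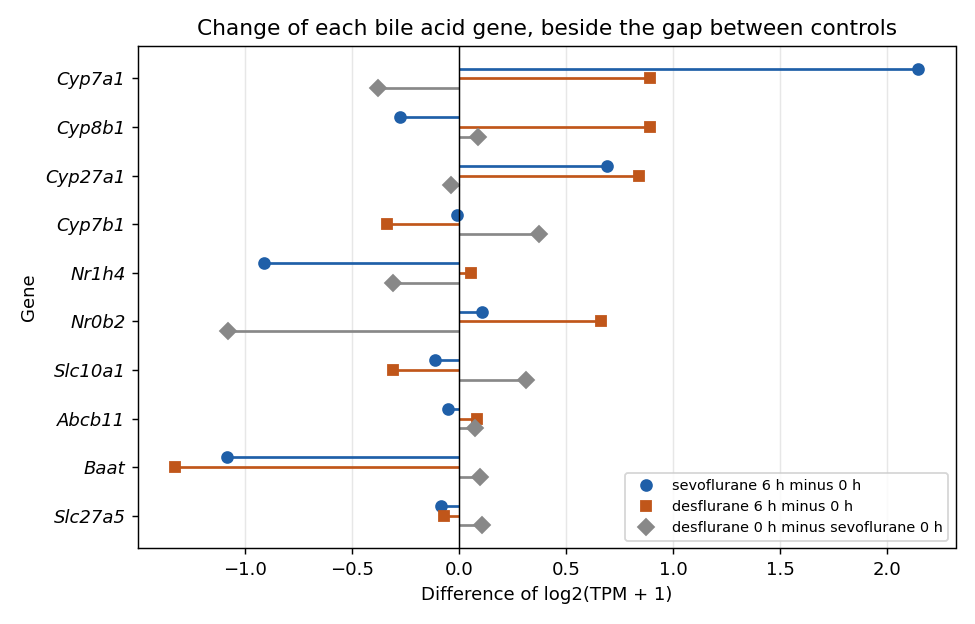
Differences of log2(TPM + 1) for each of the 10 genes: sevoflurane 6 h minus 0 h, desflurane 6 h minus 0 h, and, for scale, the desflurane control minus the sevoflurane control, each from 1 library a side. *Baat* lies near -1.1 to -1.3 with both agents, *Cyp7a1* reaches 2.15 with sevoflurane and 0.89 with desflurane, and the gap between controls is widest for *Nr0b2* (-1.08).

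Counted over the set, 1 of 10 genes (*Cyp7a1*) was called higher with sevoflurane, against 5.04% of the 8270 genes above the minimum, and 1 (*Baat*) lower, against 3.71%. With desflurane 0 of 10 were called higher, against 4.10% of 8372 genes, and 1 (*Baat*) lower, against 5.55%. These shares are near the background for so short a list. On log2(TPM + 1), sevoflurane gave a median change of the 10 genes of -0.07 and desflurane one of 0.07, beside 0.05 and -0.10 over the 9201 named genes whose TPM averaged 1 or more. Against the desflurane control the sevoflurane median was -0.28. Between the controls, 0 of 10 genes were called higher in the desflurane animal, against 1.96% of 8263 genes, and 1 (*Nr0b2*) lower, against 0.799%.

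The agents were also set side by side at 6 h, in a comparison that uses the same libraries as those above. At 6 h *Cyp8b1* was called higher with desflurane than with sevoflurane, at a ratio of 2.42, 1 of 10 genes against 2.21% of 8229 genes, and *Cyp7a1* was called lower, 3.15-fold, 1 of 10 against 1.77%. Both genes lay closer together in the controls, at 1.06-fold for *Cyp8b1* and 1.31-fold for *Cyp7a1*. *Nr1h4* was 1.61-fold higher and *Nr0b2* 1.45-fold lower in the desflurane 6 h library, and neither was called. The other 6 genes were within 1.16-fold of each other in the 6 h libraries.

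The mean change over both agents was tested with limma. It set the 2 libraries of 6 h against the 2 of 0 h, with the agent as a block. A gene can pass this test by a change that lies mainly with 1 agent. With 1 residual degree of freedom the error came mostly from the spread of all 8024 genes tested, and it covers single animals only. *Cyp7a1* rose by 1.52 on the log2(TPM + 1) scale (SE 0.23, limma, Benjamini-Hochberg adjusted p = 0.00113). *Cyp27a1* rose by 0.77 (SE 0.13, limma adjusted p = 0.00196), and *Baat* fell by 1.20 (SE 0.12, limma adjusted p = 3.02e-05). Thus 2 of 10 genes passed as higher, against 4.69% of all genes tested, and 1 of 10 as lower, against 3.94%. Each of the 3 moved in the same direction with both agents. *Cyp8b1* (change of 0.31, SE 0.23) did not pass, at a limma adjusted p of 0.524. *Nr1h4* (-0.43, SE 0.21) and *Nr0b2* (0.38, SE 0.19) had limma adjusted p of 0.302 and 0.274, and the 4 others had changes between -0.21 and 0.02 with limma adjusted p from 0.406 to 0.968. Without the agent as a block *Cyp7a1* no longer passed (limma adjusted p = 0.0966), nor did *Cyp27a1* without the mean-variance trend (limma adjusted p = 0.0599). With 1 library left out and no block, *Cyp27a1* did not pass without the sevoflurane control (limma adjusted p = 0.0756) or without the desflurane control (limma adjusted p = 0.0711), and *Cyp7a1* passed only without the desflurane 6 h library, its change being 2.34 there and 0.70 without the sevoflurane 6 h library. *Baat* passed in each of these 4 fits. With all 13629 genes above 0 in the test, none of the 3 passed, the lowest limma adjusted p being 0.0697 for *Baat*, although all 3 had an unadjusted p under 0.05.

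Marker genes of other cells and zones were read beside these changes. Pericentral hepatocytes, where *Cyp7a1* is known to be expressed, were followed by 7 markers. Their summed level was 848 TPM and 871 TPM in the sevoflurane and desflurane controls and 1556 TPM and 1824 TPM at 6 h. Of the 7, 1 was called higher with sevoflurane and 3 with desflurane. A TPM of 2 was exceeded by 4 of them in the desflurane control and by 5 in each other library. Red cell markers summed to 451 and 727 TPM in the controls and to 1214 and 1342 TPM at 6 h, with 3 of 4 called higher with sevoflurane and 0 with desflurane. The 7 periportal markers summed to between 58466 and 61436 TPM. By the rule of size, 2 of these were called higher in the sevoflurane pair. In the desflurane pair 2 were called higher and 1 was called lower. A sum follows its most abundant genes, so this narrow range does not show that the periportal zone was unchanged. The summed level of Kupffer cell markers lay between 215 and 286 TPM and bile duct markers between 8.11 and 12.6 TPM. The part of the pericentral, periportal and red cell markers in the changes of *Cyp7a1*, *Cyp27a1* and *Baat* was not tested, and in bulk tissue fewer cells of a type and less RNA per cell cannot be told apart.

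The wider pathway was read from 6 lists with 69 genes beyond the 10, of which 64 were found and 54 were tested with limma. Averaged over both agents, 7 of these rose (*Akr1c14*, *Acox2*, *Acaa1a*, *Nr1i2*, *Ppargc1a*, *Abcg5* and *Abcb1a*), 4 fell (*Akr1d1*, *Sult2a6*, *Nr1h3* and *Foxa2*) and 43 did not pass. Beside this stand the 4.69% and 3.94% given above for all genes. By the rule of size, 54 genes of the wider lists exceeded the minimum in the sevoflurane pair. Of these 6 were called higher and 1 lower, against 5.04% and 3.71% of all genes. In the desflurane pair 4 of 53 were called higher and 2 lower, against 4.10% and 5.55%. In the list of synthesis and conjugation, 3 of 16 tested rose and 2 fell. *Akr1d1*, the reductase that shapes the bile acid ring, was at 337 TPM and 142 TPM at 0 h and 6 h with sevoflurane and at 371 TPM and 319 TPM with desflurane, so most of its change came from the sevoflurane pair. *Akr1c14*, a hydroxysteroid dehydrogenase, was at 478 TPM and 1164 TPM with sevoflurane and at 612 TPM and 872 TPM with desflurane. *Akr1c14* and *Sult2a6* belong to families of near-identical genes, so their values are uncertain where the authors' counting could split reads. Set against the opposite agent's control, *Akr1c14* had nearly equal ratios, 1.90 with sevoflurane and 1.83 with desflurane, and was not called, whereas *Akr1d1* was 2.62-fold lower with sevoflurane and 1.06-fold lower with desflurane.

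Among the regulators 2 of 16 tested rose and 2 fell, against 4.69% and 3.94% of all genes tested. *Nr1i2*, which encodes the xenobiotic and bile acid sensor PXR, was at 26.0 TPM and 99.7 TPM at 0 h and 6 h with sevoflurane and at 34.1 TPM and 90.9 TPM with desflurane (change of 1.64, limma adjusted p = 3.84e-05). *Ppargc1a*, a coactivator induced by fasting, was at 0.03 TPM and 2.48 TPM with sevoflurane and at 0.41 TPM and 9.09 TPM with desflurane, with both controls below the minimum. *Foxa2*, a factor of hepatocyte identity and bile acid balance, was at 9.25 TPM and 4.73 TPM with sevoflurane and at 6.999 TPM and 2.48 TPM with desflurane (change of -1.02, limma adjusted p = 0.0148). *Nr1h3*, the oxysterol receptor LXR alpha, fell by 0.64 (limma adjusted p = 0.0105). The related receptors *Nr1i3* (change of -0.26, limma adjusted p = 0.495) and *Nr1h2* (-0.18, limma adjusted p = 0.679), named here after their values were seen, did not pass, nor did FXR itself (*Nr1h4*).

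Among 8 genes of canalicular export, 2 rose and none fell in limma, against 4.69% and 3.94% of all genes tested, and 6 did not pass. The log2 change of all 8 was positive with sevoflurane, with a median of 0.61. With desflurane it was positive for 5 of 8, with a median of 0.18. Over the 9201 named genes averaging a TPM of 1 or more, 5110 and 3521 were positive, with medians of 0.05 and -0.10. Between the controls, 7 of the 8 were higher in the desflurane animal, with a median of 0.33. The median over the 9201 genes was 0.11 there. *Abcb1a*, a multidrug export pump, was at 2.76 TPM and 22.1 TPM at 0 h and 6 h with sevoflurane and at 4.99 TPM and 12.7 TPM with desflurane. *Abcg5*, which with its partner *Abcg8* moves cholesterol into bile, was at 6.97 TPM and 33.4 TPM with sevoflurane and at 9.58 TPM and 20.6 TPM with desflurane. *Abcg8* stood at 1.57 TPM and 4.17 TPM with sevoflurane and at 2.26 TPM and 3.23 TPM with desflurane, and did not pass (limma adjusted p = 0.140). The drug pump *Abcb1a* and the sterol transporter subunit *Abcg5* thus rose, while the bile acid pump *Abcb11* did not pass.

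Of 6 uptake genes tested with limma, none passed after adjustment, and 2 (*Slco2b1*, *Slc10a5*) had an unadjusted p under 0.05. *Slc10a5*, a relative of NTCP, had 8.03 TPM and 5.01 TPM at 0 h and 6 h with sevoflurane and 6.53 TPM and 2.89 TPM with desflurane, with a limma adjusted p of 0.0651, and was called lower with desflurane by the rule of size (2.26-fold). Of basolateral export 1 gene was tested and did not pass. Among the 10 genes known to be activated by FXR that were tested and are reported here, none passed in limma after adjustment, and 2 (*Abcc2*, *Fetub*) had an unadjusted p under 0.05. Their median log2 change was 0.15 with sevoflurane and -0.03 with desflurane. This list holds none of the bile acid genes described first, so *Nr0b2*, which FXR induces, is outside the count. The count therefore does not cover all genes that FXR activates.

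**Figure D3:**
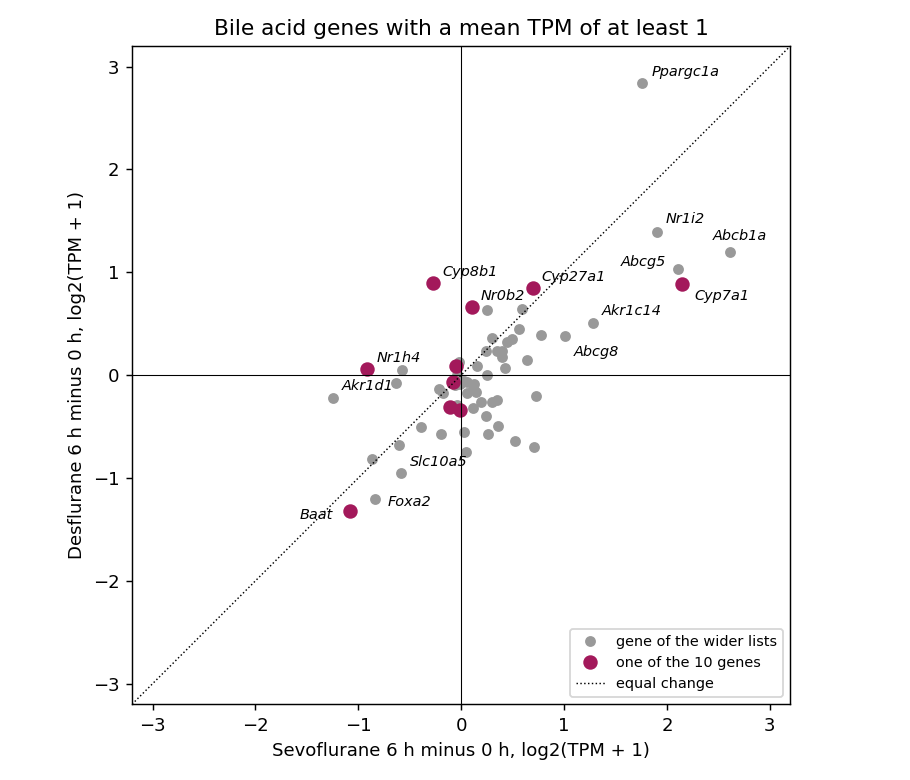
Change of each bile acid gene averaging a TPM of 1 or more, as 6 h minus 0 h on log2(TPM + 1), with sevoflurane on the x axis and desflurane on the y axis, the 10 genes in dark red, 55 genes of the wider lists in grey, and a dotted line of equal change. *Cyp7a1* and *Abcg5* lie below the line, *Baat* lies close to it in the lower left, and *Cyp8b1* and *Nr1h4* have changes of opposite sign.

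The genes most like *Cyp7a1* and *Cyp8b1* were found by the largest gap between their log2(TPM + 1) values, each centred on its mean over the 4 libraries, among 5885 named genes averaging a TPM of 5 or more. For *Cyp7a1* these were *Ces2c* (largest gap of 0.42), *Slc43a1* (0.46), *Wsb1* (0.48), *Cyp3a23/3a1* (0.51) and *Abcg5* (0.51). *Ces2c*, for example, had 10.4 TPM and 39.2 TPM at 0 h and 6 h with sevoflurane and 9.66 TPM and 20.7 TPM with desflurane. For *Cyp8b1* they were *Crat* (0.07), *Fau* (0.15), *Lst1* (0.15), *Nupr1* (0.17) and *Pex11a* (0.17), with *Crat*, a carnitine acetyltransferase, at 11.2, 10.05, 12.9 and 23.3 TPM in sevoflurane 0 h and 6 h and desflurane 0 h and 6 h, respectively. Over 4 libraries such likeness is a description only.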

How the data were processed

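Liver RNA of 4 rats was sequenced, and libraries were grouped by their titles. The submitters' processing notes name HISAT2, SAMtools, StringTie and the build rn6, with no versions. The authors deposited for each library a table of TPM, FPKM and coverage per gene. Assembled loci alone fill the total of a TPM column and repeat most named genes, so the deposited TPM column was handled as a score. Read counts are not in the tables used here, and a counting interval could therefore not be computed. Entries of one symbol were summed and those spanning 200 bp or less were left out. The authors' TPM values were compared by the rule of size (TPM above 2, ratio above 2), which calls ratios and gives no p-value.

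The change over both agents was tested on log2(TPM + 1) with limma 3.58.1 (R 4.3.3; two-sided, empirical Bayes with a mean-variance trend, p adjusted by Benjamini-Hochberg over 8024 genes averaging a TPM of 2 or more). The deposited FPKM replaced TPM in one alternative, and the deposited coverage gave the depth. Tables were handled with Python 3.11.15 and pandas 2.3.3. The rule of size and the limma fit with the agent block were tested on simulated data, and the other steps were not. The simulation used the same spread for all genes and changes of equal size with both agents. It therefore does not cover changes that differ between the agents, nor the spread between these animals. Promoters are from RefSeq (GRCr8), with no conversion of coordinates. The genes, lists and motifs were chosen with earlier results of these data known. Named were the 10 genes, genes of the wider lists past the rule of size with either agent, the 5 genes most like *Cyp7a1* and *Cyp8b1*, and *Dbp*. *Acox2*, *Acaa1a*, *Sult2a6* and *Nr1h3* were named afterwards, as they passed in limma. One item of the wider lists is not reported here and is in none of their counts.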

Additional observations from a re-analysis of the deposited data

Results flagged for a closer look

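For 3 of the 10 genes the sign of the change at 6 h differed between the agents, with 1 library on each side, and the difference was not tested. On log2(TPM + 1), *Cyp8b1* changed by -0.27 with sevoflurane and 0.89 with desflurane, a difference of 1.17 (desflurane minus sevoflurane). *Nr1h4* changed by -0.91 with sevoflurane and 0.06 with desflurane, a difference of 0.97. The desflurane change of *Nr1h4* is below the median absolute difference of 0.21 between the controls over the 10 genes, and with the controls exchanged the changes were -0.60 and -0.25, of the same sign. *Abcb11* changed by -0.05 and 0.09, a difference of 0.14, which is also below 0.21.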

How the results depend on the processing

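The 10 changes in each comparison kept their direction wherever a gene was called, and counts that stayed within 1.5 times of those reported are not listed here. For the rule of size, the share over all genes was taken only at the main setting. Its counts at the other settings thus have no background beside them and cannot be judged against one. With a ratio above 1.5, 2 genes were higher and 2 lower with sevoflurane, 4 higher with desflurane, and 2 higher at desflurane 6 h than at sevoflurane 6 h; of the wider lists 11 were higher and 6 lower with sevoflurane and 9 lower with desflurane. With a ratio above 3, 0 of the 10 genes were lower with sevoflurane, with desflurane or in the desflurane control, 0 were higher at desflurane 6 h than at sevoflurane 6 h, and of the wider lists 0 were lower with either agent and 1 was higher with desflurane. On FPKM 2 genes were lower with sevoflurane (*Nr1h4*, *Baat*). Scaling by the median of ratios called 2 genes higher with desflurane (*Cyp7a1*, *Cyp8b1*) and 2 of the wider lists lower with sevoflurane (*Akr1d1*, *Foxa2*). With the control of the other agent 2 genes were higher with sevoflurane (*Cyp7a1*, *Nr0b2*) the median change was -0.28, and 2 of the wider lists were lower with sevoflurane (*Akr1d1*, *Sult2a6*). Assembled loci in place of named genes, chosen after seeing the data, changed no call among the 10 genes. In limma, 1 gene was higher with no agent block (*Cyp27a1*) and 1 without the trend (*Cyp7a1*), and with all genes above 0, 0 were higher and 0 lower, while 3 had an unadjusted p under 0.05. Over all genes, limma called 376 higher and 316 lower, against 284 and 204 with no agent block, 270 and 170 without the trend, and 19 and 6 with all genes above 0. Leaving out 1 library at a time (no block) gave 0 to 2 genes higher and 1 lower (*Baat*). Without the sevoflurane control or without the desflurane control 0 were higher, with 4 and 2 genes at an unadjusted p under 0.05. Without sevoflurane 6 h, *Cyp8b1* and *Cyp27a1* were higher, and without desflurane 6 h, *Cyp7a1* and *Cyp27a1*. Over all genes these fits called 113 to 312 higher and 61 to 274 lower. No paired analysis by replicate number was possible because each group held 1 library. The cause of these differences was not tested. Among the 10 genes *Cyp7b1* had the lowest coverage.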

Other observations

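*Abcb11* was assembled from the reads as 2 loci on its own strand in each library, with a gap of 4789 to 4822 bp between them. The locus at the 3′ end of *Abcb11* stood at 157, 156, 168 and 176 TPM in sevoflurane 0 h and 6 h and desflurane 0 h and 6 h, respectively, and that at the 5′ end at 182, 176, 188.5 and 203 TPM. The ratio of the former to the latter lay between 0.861 and 0.890, and neither end stood out in any library.

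The other 9 genes were each assembled as 1 locus on their own strand. Of the 36 pairs of assembled and named values, 21 were equal within 0.1%, and the widest gap was 11.9%, for *Nr1h4* at desflurane 6 h. The locus assembled on the opposite strand inside *Nr1h4* spanned 8020 to 8085 bp, and its ratio to *Nr1h4* level was 0.234 and 0.560 at 0 h and 6 h with sevoflurane and 0.331 and 0.297 with desflurane.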
